A study of Mus musculus with 8 samples.

Results

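The genes described here encode the feedback inhibitors of ERK signalling: the dual-specificity phosphatases Dusp1, Dusp2, Dusp4, Dusp5 and Dusp6, the Sprouty proteins Spry1, Spry2 and Spry4, and the Sprouty-related proteins Spred1 and Spred2. They were listed by name, and the probe set with 1 gene symbol and the highest mean over the arrays stood for each gene. All 10 listed genes were found among 22180 measured genes, and all 10 had a mean above the median gene mean of 4.92, so none was lost to a filter on low values. Expression was measured on Affymetrix arrays in glomeruli isolated from kidneys of mice aged 13 weeks, 1 array per sample. Every group had received doxycycline for 3 weeks, started at an age of 8 weeks. Control mice (2 arrays) are named only as control, with doxycycline as their sole stated treatment and no alleles given. Mice of the genotype Tln1 Pod-rtTA TetO-Cre then had 2 weeks of vehicle (Tln1 vehicle, 3 arrays) or of valproic acid, an inhibitor of histone deacetylases (Tln1 VPA, 3 arrays). By its name this line expresses Cre under doxycycline in podocytes, the epithelial cells of the glomerular filter, where it acts on the gene of talin 1, a linker of integrins to actin. No label says whether the control mice were given vehicle, so genotype and vehicle cannot be told apart in Tln1 vehicle against control. In Tln1 VPA against control, genotype and valproic acid differ together and cannot be told apart. Whether each array is a separate animal is not labelled, so the p-values here cover the spread of these samples alone, and that spread may be technical. The series text calls the compared mice control and proteinuric.

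Growth factor receptors and integrins activate RAS, which switches on the kinases RAF, MEK and ERK in turn, and ERK then drives transcription of early response genes. Among the induced genes are inhibitors of the cascade itself. Dual-specificity phosphatases remove the activating phosphates from the tyrosine and the threonine of MAP kinases, while Sprouty and Spred proteins act upstream, on the activation of RAS and RAF. In the kidney, Spry1 is known for restraining RET signalling during branching of the ureteric bud. Because ERK induces many of these genes, their transcripts are often used as a readout of the pathway, although other signals also control them.

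Promoter windows of the 250 bases before the annotated start were read from RefSeq (GRCm38.p6) for 8 of the 10 genes, without Dusp4 and Spry4. Windows of the listed genes were also filtered by chromosome, so a missing window need not mean a missing entry. The windows of Dusp1, Dusp2, Dusp5 and Dusp6 are shown, since these are the genes with a searched motif of more than 5 letters or, for Dusp6, with the smallest p-values of the family. Capitals mark motif matches, found on both strands, and each sequence runs 5′ to 3′ on the strand of its gene. Dusp1 lies on the minus strand (chr17:26508473-26508722), and Dusp2 (chr2:127335909-127336158), Dusp5 (chr19:53528895-53529144) and Dusp6 (chr10:99262981-99263230) on the plus strand.
Dusp1: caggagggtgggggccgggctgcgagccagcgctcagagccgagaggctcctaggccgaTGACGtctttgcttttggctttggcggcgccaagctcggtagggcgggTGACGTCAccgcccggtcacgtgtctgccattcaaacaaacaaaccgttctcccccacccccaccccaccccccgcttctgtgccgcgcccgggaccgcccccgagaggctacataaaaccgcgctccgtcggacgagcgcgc
Dusp2: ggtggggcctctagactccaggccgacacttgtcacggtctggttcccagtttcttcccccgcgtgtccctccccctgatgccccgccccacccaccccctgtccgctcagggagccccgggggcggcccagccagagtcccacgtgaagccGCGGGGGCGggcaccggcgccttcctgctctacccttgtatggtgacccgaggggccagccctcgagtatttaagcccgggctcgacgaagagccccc
Dusp5: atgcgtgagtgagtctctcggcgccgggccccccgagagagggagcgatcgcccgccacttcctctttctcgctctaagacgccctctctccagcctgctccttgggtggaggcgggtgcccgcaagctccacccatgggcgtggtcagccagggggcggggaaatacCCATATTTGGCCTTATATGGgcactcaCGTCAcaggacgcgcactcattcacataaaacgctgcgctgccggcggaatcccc
Dusp6: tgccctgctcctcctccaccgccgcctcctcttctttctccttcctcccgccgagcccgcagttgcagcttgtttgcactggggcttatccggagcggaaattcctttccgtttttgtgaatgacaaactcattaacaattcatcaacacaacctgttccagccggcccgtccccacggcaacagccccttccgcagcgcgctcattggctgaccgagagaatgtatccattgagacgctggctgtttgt
The Dusp1 window held the cAMP response element TGACGTCA at 143 to 136 bases before the start, a motif present in 1.55% of 32851 promoter windows of this length. Its core TGACG, which overlaps that element, was found again at 191 to 187 bases, and also in the windows of Dusp5 and Spred2, against 17.8% of all windows. In the Dusp5 window 2 CArG boxes, the motif bound by serum response factor, stood side by side at 82 to 73 and 72 to 63 bases before the start, and 1.47% of all windows held such a box. Dusp2 carried the EGR motif GCGGGGGCG at 98 to 90 bases (2.57% of all windows). None of the 8 windows held the AP-1 motif TGANTCA (6.75% of all windows), the ETS motif CCGGAAG (6.91%) or the EGR motif GCGTGGGCG (0.536%). No searched motif was in the windows of Dusp6, Spry1, Spry2 or Spred1. These are matches of letters in short windows only.

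The 8 arrays form 2 sets that cut across the groups, found by clustering the arrays over all genes. The second set holds the arrays numbered 3 of both Tln1 groups and control 2, and the first of the remaining 5 arrays. Correlations over genes were 0.990 to 0.995 within and 0.966 to 0.979 between the sets. All 14 measured podocyte markers and all 14 proximal tubule markers lay above the median gene mean on average. The podocyte mean was 7.40 to 8.03 in first-set arrays against 8.55 to 9.26 in second-set arrays, whereas the tubule mean was 11.8 to 12.2 against 10.7 to 11.2. In an isolate of many cell types, fewer cells of a type and less RNA per cell cannot be told apart. The mean of the 3 measured Y-linked genes was 4.85 to 7.00 in the first-set Tln1 arrays, 3.57 in control 1 and 2.56 to 2.72 in the second set. The sex of the mice is not given here. Within the first set, sex and genotype therefore cannot be told apart in the comparisons with control. Among the Tln1 arrays, the Y-linked level differed with the array set, so sex and array set cannot be told apart there either. Tln1 itself read 8.97 and 8.64 (control), 8.95, 8.95 and 8.60 (Tln1 vehicle) and 8.76, 8.88 and 8.59 (Tln1 VPA). It checks no label, because the sources used here do not place its probe set within or outside the excised exons.

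Values below are log2 RMA expression levels, and changes are differences of group means on that scale from 1 limma fit over all genes, with Benjamini-Hochberg adjusted p-values over the 22180 genes. No ERK feedback gene passed an adjusted p of 0.05 in any comparison. Dusp6 stood highest in Tln1 VPA arrays, with the same direction in each array set, and Spry1 was higher in every Tln1 array than in both control arrays. For Dusp1, Dusp4, Spry4, Spred1 and Spred2 the difference between the array sets was larger than any between groups.

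**Figure D1:**
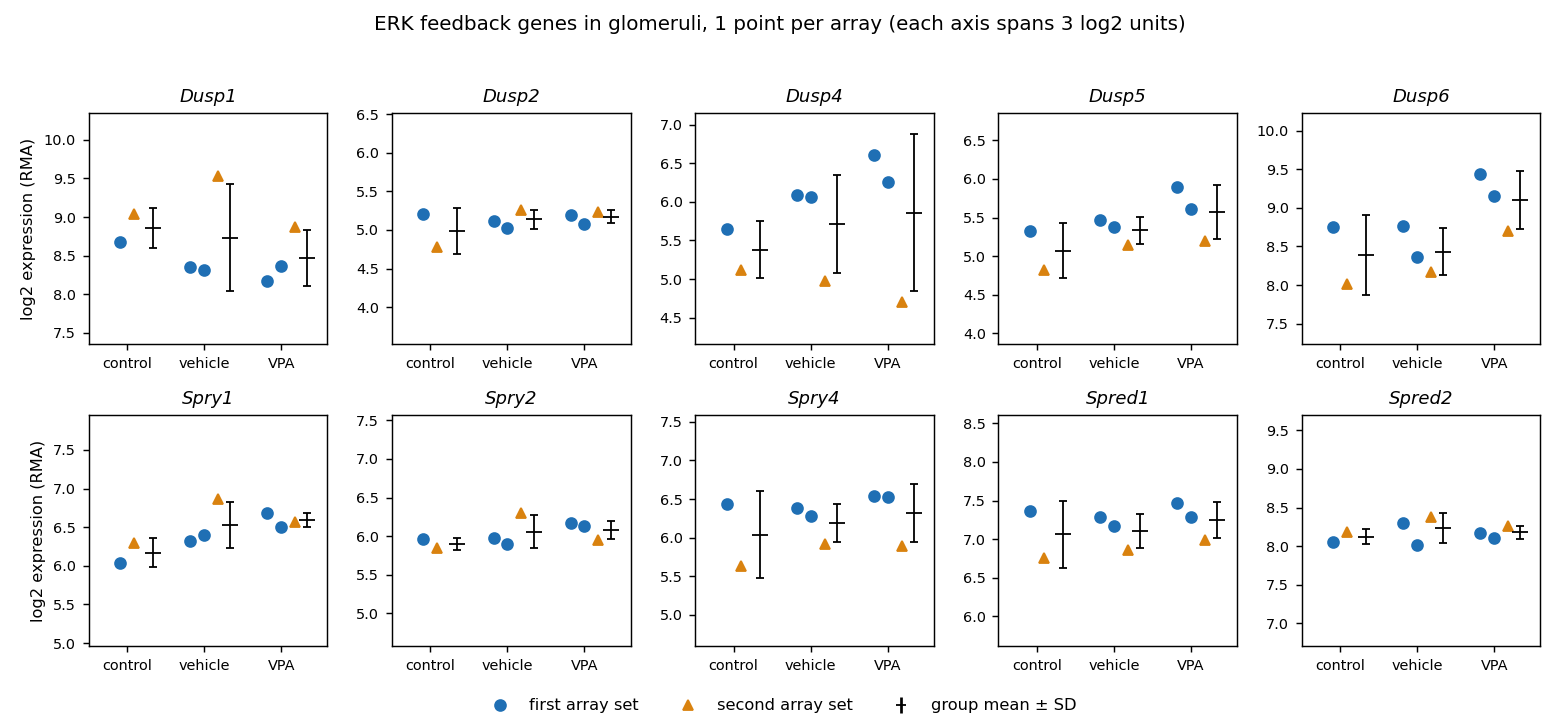
Log2 expression (vertical axes, each spanning 3 log2 units) of the 10 ERK feedback genes in control, Tln1 vehicle and Tln1 VPA arrays, 1 point per array, with group means ± SD as black bars. Circles are the first and triangles the second array set. Second-set arrays lie above the first-set arrays of their group for Dusp1 and below them for Dusp4, and Dusp6 lies higher in Tln1 VPA than in Tln1 vehicle arrays within each set.

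Dusp6 encodes the cytoplasmic phosphatase that is selective for ERK. Control 1 and 2 read 8.75 and 8.02, the Tln1 vehicle arrays 8.77, 8.36 and 8.17, and the Tln1 VPA arrays 9.44, 9.16 and 8.70, each in order of replicate number. Both first-set Tln1 VPA arrays were above all other arrays, while Tln1 VPA 3 lay just below control 1 and Tln1 vehicle 1, so the groups overlapped. Group means were 8.39 ± 0.52 (SD, n = 2), 8.43 ± 0.30 (n = 3) and 9.10 ± 0.38 (n = 3). A second probe set with this symbol read between 2.74 and 3.26, a low level, with a change of -0.20 (SE 0.14) for Tln1 VPA against Tln1 vehicle where the main probe set gave 0.67.

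Dusp1 encodes a nuclear phosphatase that acts on p38 and JNK as well as on ERK. The control arrays read 8.67 and 9.04, Tln1 vehicle 8.35, 8.31 and 9.53, and Tln1 VPA 8.17, 8.37 and 8.88. In each group the second-set array was the highest. In the fit with the array set as a block, Dusp1 was 0.76 higher in the second set, a set difference larger in size than that of 91.3% of genes. This is a description, since the clustering used the same genes. Stress genes known to respond to tissue handling, heat shock genes among them, had list means of 7.04 to 7.36 in first-set and 7.39 to 7.74 in second-set arrays. Not every gene of the list went this way, and some heat shock genes were lower in the second set. The part of these genes in the Dusp1 values was not tested.

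Dusp4 encodes a nuclear phosphatase of ERK, JNK and p38. Its control arrays read 5.64 and 5.12, Tln1 vehicle 6.08, 6.07 and 4.98, and Tln1 VPA 6.61, 6.26 and 4.70. The second-set array was the lowest of each group, and the set difference was -1.17, larger in size than that of 98.0% of genes. Its SD of 1.02 within Tln1 VPA arrays was the largest of the family.

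Dusp5 encodes a nuclear phosphatase selective for ERK. Levels were 5.32 and 4.82 (control), 5.47, 5.38 and 5.14 (Tln1 vehicle) and 5.90, 5.62 and 5.20 (Tln1 VPA). Within each set the order was control, then Tln1 vehicle, then Tln1 VPA, while over both sets the groups overlapped. Dusp2, an inducible nuclear phosphatase known from immune cells, ranged from 4.77 (control 2) to 5.26 (Tln1 vehicle 3), with means of 4.99 ± 0.30, 5.14 ± 0.12 and 5.17 ± 0.08 (SD) in the 3 groups.

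Spry1 levels were 6.04 and 6.30 (control), 6.32, 6.40 and 6.87 (Tln1 vehicle) and 6.69, 6.51 and 6.57 (Tln1 VPA). Every Tln1 array was above both control arrays, although Tln1 vehicle 1 exceeded control 2 by a small margin. The Tln1 vehicle and Tln1 VPA arrays overlapped. Spry2, which binds the ubiquitin ligase CBL and GRB2, ranged from 5.84 (control 2) to 6.30 (Tln1 vehicle 3), with means of 5.90 ± 0.08, 6.06 ± 0.21 and 6.08 ± 0.12. Spry4, an inhibitor of RAS and RAF activation, ranged from 5.64 (control 2) to 6.54 (Tln1 VPA 1) and was lowest in the second-set array of each group (means 6.04 ± 0.57, 6.20 ± 0.25 and 6.32 ± 0.37).

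Spred1, which brings the RAS inhibitor neurofibromin to the membrane, ranged from 6.76 (control 2) to 7.46 (Tln1 VPA 1), with means of 7.06 ± 0.43, 7.11 ± 0.22 and 7.25 ± 0.24. It too was lowest in the second-set array of each group. Spred2, its relative with a like role, varied least, from 8.02 (Tln1 vehicle 2) to 8.38 (Tln1 vehicle 3), with means of 8.12 ± 0.09, 8.24 ± 0.19 and 8.18 ± 0.08.

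The first comparison, Tln1 vehicle against control, addressed how glomeruli differ after podocyte Cre activity. Spry1 had the smallest p-value of the family, with a change of 0.36 (SE 0.19, 95% interval -0.08 to 0.80, unadjusted p = 0.0963, adjusted p = 1.00). Within the array sets it was at 0.32 (first) and 0.57 (second). It was the only one of the 10 genes whose arrays did not overlap, in the higher direction, as for 4.78% of all genes, and 0 of the 10 were separated in the lower direction, as for 3.59%. The share of 1 in 10 rests on a single gene and is no result about the family. Changes of the other genes ran from -0.12 (SE 0.39) for Dusp1 to 0.33 (SE 0.58) for Dusp4, and Dusp6 was at 0.05 (SE 0.30, interval -0.65 to 0.75).

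In this comparison 9 of the 10 genes had a higher mean in Tln1 vehicle arrays, beside 55.6% of all genes, and the median change was 0.15 beside 0.02 for all genes. This count was 6 of 10 without control 2 and 9 of 10 without control 1. It was 4 of 10 within the first set and 9 of 10 within the second, and the sets gave median changes of -0.06 and 0.30. Limma called 0 of the 10 genes at an adjusted p below 0.05 and 0% of all genes, also 0% with the array set as a block. At an unadjusted p below 0.05 there were 0 of the 10 genes and 322 of all genes (1.45%), while the block gave 1 (Spry1) and 1620 (7.30%). Spry1 in the blocked fit was at 0.40 (SE 0.14, adjusted p = 0.594), and with the Y-linked mean as a covariate at 0.53 (adjusted p = 0.322). In the same comparison 10 of 12 mesangial and smooth muscle markers and 9 of 13 endothelial markers had higher means, and 11 of 14 podocyte markers lower ones, and their part in the Spry1 level was not tested. The median change of each list turned in the first array set. It was -0.17 (mesangial and smooth muscle), -0.12 (endothelial) and 0.31 (podocyte) there, against 0.78, 0.91 and -0.35 in the second. The mesangial and smooth muscle list was mixed, as its mean stayed higher in first-set Tln1 vehicle arrays (7.28 and 7.08) than in control 1 (6.98). Its genes with the smallest p-values, Itga8, Des, Pdgfrb and Sfrp2, were higher within both sets, while most of the others were lower within the first.

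The second comparison, Tln1 VPA against Tln1 vehicle, addressed what 2 weeks of valproic acid changed. Dusp6 had the largest change of the family, 0.67 (SE 0.27, 95% interval 0.04 to 1.29, a fold of 1.59), which missed the threshold over all genes (limma, unadjusted p = 0.0402, adjusted p = 1.00). The difference was 0.68, 0.79 and 0.53 between same-numbered arrays 1, 2 and 3, called pairs here although no label pairs them. Of all genes, 22.4% were higher within both array sets, and the share higher in all 3 pairs was not counted. With the array set as a block the interval was 0.34 to 0.99 (limma, SE 0.14, unadjusted p = 0.00197, rank 54 among 22180 genes), and the adjusted p was 0.789. Because the sets came from clustering these same arrays, blocked intervals and p-values, here and in the other comparisons, are descriptions. Over 20 alternatives the change lay between 0.23 and 0.87, the lowest when both Dusp6 probe sets were averaged, and its adjusted p between 0.335 and 1.00.

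Dusp5 followed at 0.24 (SE 0.22, interval -0.26 to 0.74), with 0.42, 0.23 and 0.06 between same-numbered arrays. Its change was 0.075 without Tln1 VPA 1 and 0.42 without Tln1 VPA 3. Spred1 was also higher in each pair, by 0.18, 0.12 and 0.13 (change 0.14, SE 0.21), but its change was 0.020 without Tln1 vehicle 3. Dusp1 was at -0.26 (SE 0.35), where Tln1 VPA 3 lay 0.66 below Tln1 vehicle 3 (-0.66) and the first-set difference was -0.06. Dusp2, Dusp4, Spry1, Spry2 and Spry4 were higher in pairs 1 and 2 and lower in pair 3, with changes of 0.04 (SE 0.14), 0.15 (SE 0.52), 0.06 (SE 0.17), 0.02 (SE 0.14) and 0.12 (SE 0.27). Spred2 was at -0.06 (SE 0.13).

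Of the 10 genes, 8 had a higher mean in Tln1 VPA arrays, beside 51.3% of all genes, and the median change was 0.09 beside 0.00 for all genes. First-set arrays alone gave 8 of 10, second-set arrays 3 of 10 with a median of -0.07, and the count was 5 of 10 without Tln1 vehicle 2. Arrays were separated for 0 of the 10 genes in either direction, against 1.98% of all genes higher and 1.57% lower. Limma called 0 of the 10 genes and 0% of all genes, with or without the block. At an unadjusted p below 0.05 there was 1 of the 10 (Dusp6) beside 280 of all genes (1.26%), and with the block again Dusp6 alone beside 1205 (5.43%).

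**Figure D2:**
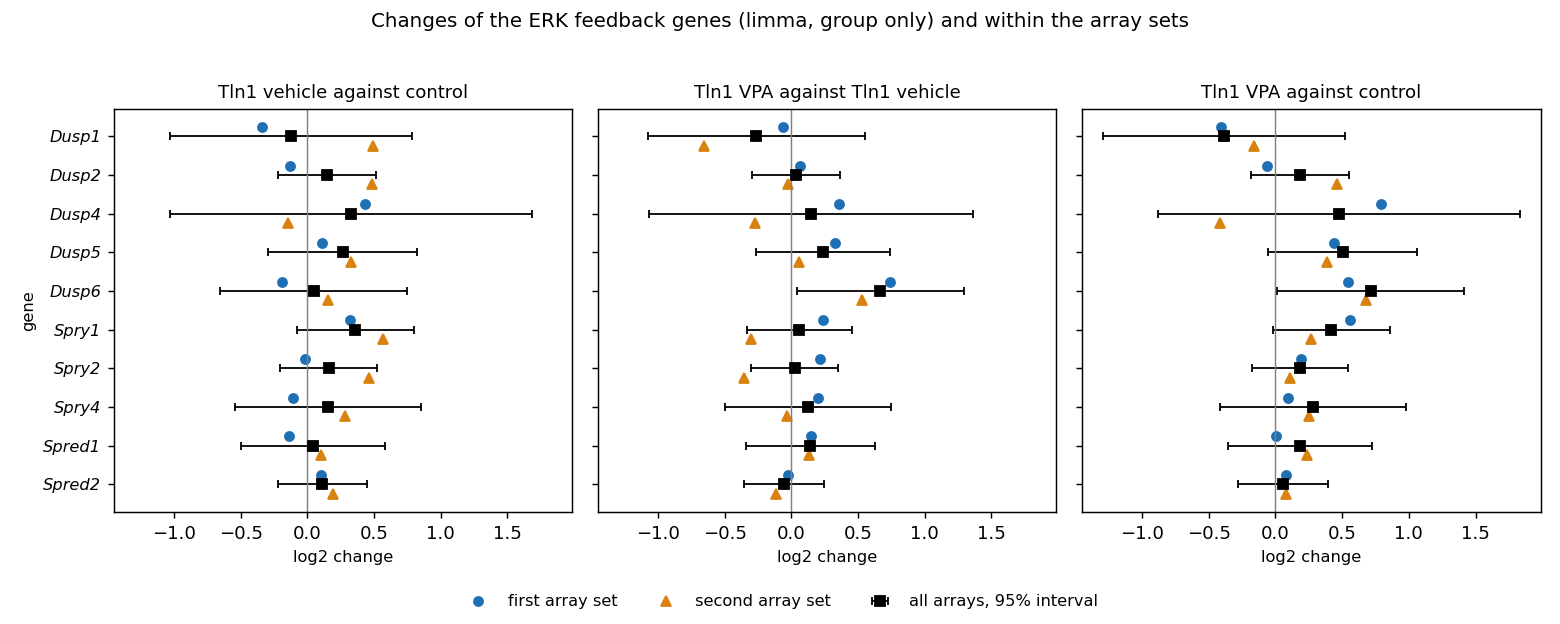
Log2 change (horizontal axis) of each ERK feedback gene in the 3 comparisons. Squares with bars are limma estimates over all arrays with 95% intervals, circles are changes within the first and triangles within the second array set. The interval lies above 0 for Dusp6 in both comparisons of Tln1 VPA arrays (from 0.04 and from 0.01), and spans 0 for the other 28 estimates. These intervals are not adjusted for the number of genes.

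Markers of other cell types moved in the same comparison and are given beside Dusp6. The 8 parietal epithelial markers averaged 6.79 to 6.96 in Tln1 vehicle and 6.97 to 7.30 in Tln1 VPA arrays (7 of 8 higher), and the 14 macrophage markers 4.58 to 5.10 and 4.75 to 5.67 (13 of 14 higher, with 7 of the 14 above the median gene mean). The 13 endothelial markers averaged 8.08 to 9.10 and 8.18 to 8.44 (12 of 13 lower). Lower means were also found for 12 of 14 podocyte, 13 of 14 proximal tubule and 11 of 12 mesangial and smooth muscle markers, although the proximal tubule median was 0.13 in the second array set. With the difference between podocyte and proximal tubule means as a covariate, Dusp6 was at 0.64 (adjusted p = 0.740). The part of the other marker lists in its level was not tested.

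Egr1, an early response transcription factor induced by ERK, followed another course in the same arrays. Its levels were 5.96 and 6.44 (control), 7.91, 7.92 and 8.21 (Tln1 vehicle) and 6.86, 7.20 and 6.56 (Tln1 VPA), with no overlap between groups. Its changes were 1.81 (SE 0.23) for Tln1 vehicle against control and -1.14 (SE 0.20) for Tln1 VPA against Tln1 vehicle, where Dusp6 had 0.05 and 0.67. Neither Egr1 change passed over all genes (adjusted p = 1.00 in both), and both comparisons share the Tln1 vehicle arrays. Egr1 was chosen with earlier results of the series known and does not stand for all ERK-induced genes. Of the 28 measured, 15 were higher and 13 lower in Tln1 VPA against Tln1 vehicle.

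**Figure D3:**
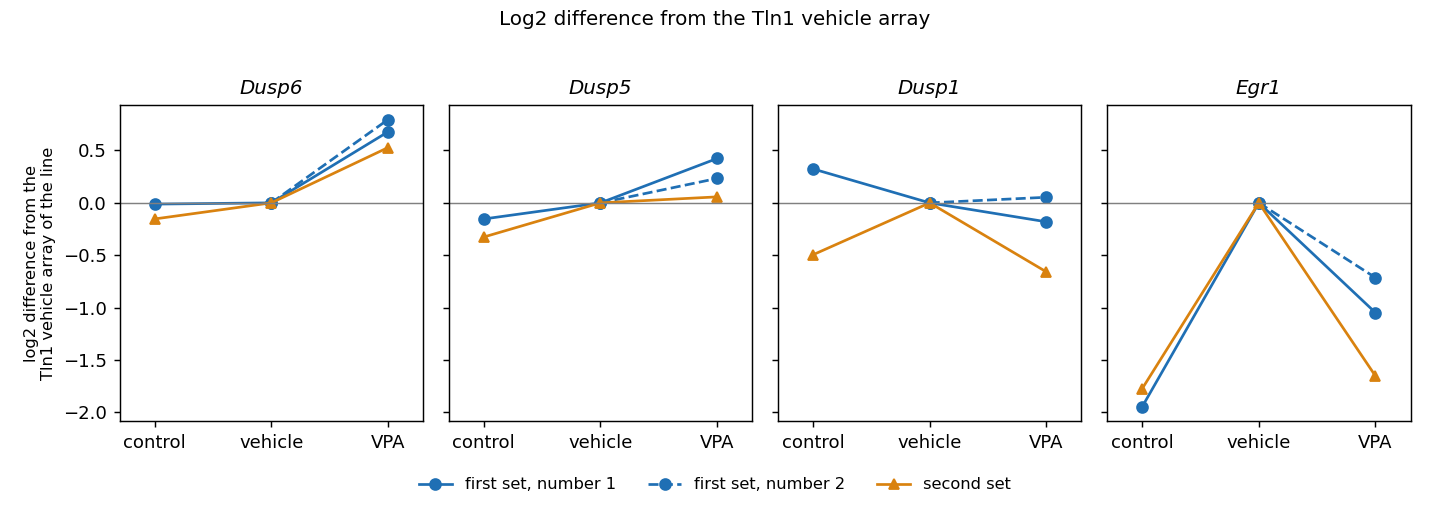
Log2 difference of each array from a Tln1 vehicle array of its set (vertical axis) for Dusp6, Dusp5, Dusp1 and Egr1, with 1 line per array series: control 1, Tln1 vehicle 1 and Tln1 VPA 1 (solid circles), Tln1 vehicle 2 and Tln1 VPA 2 (dashed), and control 2, Tln1 vehicle 3 and Tln1 VPA 3 (triangles). From vehicle to VPA, all 3 lines go up for Dusp6 (0.68, 0.79 and 0.53) and down for Egr1, while those of Dusp1 differ in direction.

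The third comparison, Tln1 VPA against control, shares arrays with each of the others. Dusp6 was at 0.71 (SE 0.30, interval 0.01 to 1.42, unadjusted p = 0.0471, adjusted p = 1.00), with set values of 0.55 and 0.68. It was at 0.35 without control 2 and at 1.08 without control 1. Dusp5 was at 0.50 (SE 0.24, sets 0.44 and 0.38) and Spry1 at 0.42 (SE 0.19, sets 0.56 and 0.27). Without control 2, Dusp5 was at 0.25, and without control 1 it was at 0.75. Dusp4 was at 0.48 (SE 0.58), its sets gave 0.79 and -0.42, and it ran from 0.10 without Tln1 VPA 1 to 1.05 without Tln1 VPA 3. Dusp1 was at -0.39 (SE 0.39) and was the only gene of the family with a lower mean. The remaining 5 genes lay between 0.06 (Spred2) and 0.28 (Spry4).

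Thus 9 of the 10 genes had a higher mean, beside 56.8% of all genes, with a median change of 0.23 beside 0.02. Within both array sets 7 of the 10 were higher, against 22.4% of all genes, and 1 was lower, against 22.9%. Each set holds 1 control array, and Spred1 counts as higher with a first-set change of 0.005. The count higher in both sets was 3 of 10 beside 20.8% of all genes in Tln1 vehicle against control. It was 3 of 10 beside 22.4% in Tln1 VPA against Tln1 vehicle. Without control 2, 6 of the 10 genes had a higher mean in Tln1 VPA against control. Arrays were separated for 1 gene (Spry1, higher) beside 5.57% of all genes higher, and for 0 lower beside 3.98%. Limma called 0 of the 10 genes and 0% of all genes, also with the block. At an unadjusted p below 0.05 there was Dusp6 beside 414 of all genes (1.87%), and with the block Dusp5, Dusp6 and Spry1 beside 1800 (8.12%). Their blocked changes were 0.43 (SE 0.11), 0.62 (SE 0.15) and 0.46 (SE 0.14), with adjusted p-values of 0.398, 0.360 and 0.451.

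Other genes of the pathway were described by fixed lists, and no gene of any list passed the adjusted threshold in any comparison. ERK-induced genes had 25 of 28 measured members higher in Tln1 vehicle against control (median change 0.18), with Egr1, Junb (0.84, SE 0.28), Zfp36 (0.47, SE 0.21) and Fos (1.64, SE 0.78) at the smallest p-values. In Tln1 VPA against Tln1 vehicle 15 were higher and 13 lower (median 0.03), with Fosb, an AP-1 subunit, at -1.13 (SE 0.36), and Fosl2, another, at 0.53 (SE 0.26). In Tln1 VPA against control 26 were higher (median 0.23), among them Ccn1 (1.20, SE 0.61), Ier3 (0.81, SE 0.44) and Atf3 (0.64, SE 0.35). These genes were listed with earlier results of the series known, so their direction is no independent evidence. Isolation stress genes had 12, 8 and 14 of 16 higher in the 3 comparisons, and their part in these values was not tested.

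The other dual-specificity phosphatases showed no common direction. Of 16 measured, 8 were higher in Tln1 vehicle against control (median -0.01), 9 in Tln1 VPA against Tln1 vehicle (0.01) and 7 in Tln1 VPA against control (0.00). Dusp7, a cytoplasmic ERK phosphatase close to Dusp6, was at 0.39 (SE 0.32), 0.19 (SE 0.29) and 0.58 (SE 0.32) in these comparisons. Dusp16, a phosphatase of JNK and p38, was at 0.24 (SE 0.15) in the second and 0.28 (SE 0.17) in the third. Dusp15 was at -0.59 (SE 0.37) in the first and -0.81 (SE 0.37) in the third.

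Among receptors and ligands 16 of 33 measured were higher in the first comparison, 10 in the second and 15 in the third, with medians of -0.01, -0.05 and -0.01. Pdgfrb, the platelet-derived growth factor receptor of mesangial cells, was at 0.74 (SE 0.19), -0.36 (SE 0.17) and 0.38 (SE 0.19). Fgfr3, a fibroblast growth factor receptor, was at -0.30 (SE 0.11) in Tln1 VPA against Tln1 vehicle, and Egf, made in the distal nephron, at -1.11 (SE 0.35) in Tln1 VPA against control. Of the 24 measured genes of the cascade from adaptors to ERK-bound transcription factors, 13, 10 and 9 were higher, with medians of 0.04, -0.02 and -0.05. Srf, the serum response factor, was at -0.24 (SE 0.15) and 0.18 (SE 0.13) in the first and second comparison. Other inhibitors of RAS and ERK had 14, 12 and 14 of 23 higher, with medians of 0.02, 0.00 and 0.04. That list also holds Rasgrp3, an activator of RAS by its known role (0.56, SE 0.28, and -0.69, SE 0.25), beside Il17rd, an inhibitor of fibroblast growth factor signalling (0.21, SE 0.16, in the second comparison).

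The genes most like 3 members over the 8 arrays were named by a fixed rule, among 11089 other genes above the median level. Arrays of a set share their level, so Pearson r is also given after the set means were taken out, as a description over 8 arrays. For Dusp6 these were Rps6 (r = 0.988, and 0.983 within sets), Rpl31-ps20 (0.973 and 0.959) and Tsen15 (0.962 and 0.983). For Spry1 they were Dmrt2 (0.956 and 0.964), B830017H08Rik (0.956 and 0.979) and Naa16 (0.944 and 0.935). For Dusp5 they were Zfp180 (0.973 and 0.933), Tcf19 (0.970 and 0.936) and Fam214b (0.968 and 0.945). Within the family, after the set means were taken out, the highest values were 0.858 (Dusp6 and Spred1), 0.856 (Dusp6 and Dusp5) and 0.841 (Spry1 and Dusp5), while Dusp6 and Dusp1 had the lowest value, -0.42.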

How the data were processed

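Biotinylated cRNA was prepared from glomerular total RNA for Affymetrix arrays, per the labels' protocols. The authors deposited log2 values, and RMA and limma are named, per the submitters' processing notes. The sources used here give no versions, annotation or build, nor which arrays were normalised together. Values of 41345 probe sets ran from 1.49 to 13.9 and are not centred per gene. Probe sets were named through the platform annotation, which gave 1 symbol for 23521, several for 1814 and none for 16010. The number of arrays limits the precision.

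All genes were fitted with limma 3.58.1 in R 4.3.3 (lmFit with a group term alone, then eBayes, 8 arrays, two-sided), with Benjamini-Hochberg adjustment over 22180 genes and a threshold of 0.05. The fit was run on simulated data with independent noise and no array sets, to check that known changes were recovered on average. This setting does not show how calls behave where array sets are present. The ERK feedback genes are all named. Of each further list, up to 4 genes with the smallest p per comparison could be named, as could the 3 genes with the highest r to each of the 3 ERK feedback genes with the smallest p. Members, lists and alternatives were chosen with earlier results of these data known, and the Y-linked genes and covariates after the values were seen. Across genes, deviations from the group mean correlated between Tln1 vehicle and Tln1 VPA arrays of one number (r = 0.570, 0.609 and 0.787). Differently numbered first-set arrays had nearly as high values (0.515 and 0.510). The arrays numbered 3 are the only second-set arrays of the Tln1 groups, so number and set cannot be told apart for them. The correlations thus follow the array set and hardly show a pairing by number. The arrays count as paired by the rule used here, though the labels state no pairing. Plots used matplotlib 3.10.9 (Python 3.11.15).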

Additional observations from a re-analysis of the deposited data

How the results depend on the processing

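No ERK feedback gene was called under any of the 18 or 19 alternatives tested per comparison. Under every alternative the sign stayed the same for Dusp6, Dusp5 and Spred1 in Tln1 VPA against Tln1 vehicle, and for Dusp5, Spry1 and Spred2 in Tln1 vehicle against control, but single arrays moved the sizes of these changes. With the replicate number as a replicate block, 0 genes were called in Tln1 VPA against Tln1 vehicle, and Dusp6 was at 0.67 (limma, adjusted p = 0.651). There, arrays of one number were taken as pairs, although no label states a pairing. In the comparisons with control the numbers do not pair the arrays (r = -0.59 and -0.50 for number 2), and there the replicate block called 4 genes (Tln1 vehicle) and 1 gene (Tln1 VPA), none of them an ERK feedback gene, with Spred2 at -0.0014 in the latter. The Y-linked covariate gave 21 genes in Tln1 VPA against control, again without an ERK feedback gene. The cause of these shifts was not tested.

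Signs of the smaller changes turned under several settings. For Tln1 vehicle against control, the array set as a block gave 0.0030 for Dusp1, -0.046 for Dusp6 and -0.031 for Spred1. The first set alone gave -0.13 (Dusp2), -0.19 (Dusp6), -0.020 (Spry2), -0.11 (Spry4) and -0.14 (Spred1), with a median of -0.064, and the second alone 0.50 (Dusp1) and -0.14 (Dusp4). The Y-linked covariate gave 0.41 (Dusp1), -0.44 (Dusp4), -0.21 (Dusp6), -0.17 (Spry4) and -0.18 (Spred1), and the podocyte and tubule covariate -0.038 (Dusp6) and -0.026 (Spred1). For Tln1 VPA against Tln1 vehicle, the second set alone gave -0.024 (Dusp2), -0.27 (Dusp4), -0.30 (Spry1), -0.35 (Spry2) and -0.031 (Spry4), with a median of -0.074, and the Y-linked covariate -0.0055 (Spry1) and -0.0012 (Spry2). For Tln1 VPA against control, the first set alone gave -0.063 (Dusp2), the second alone -0.42 (Dusp4), and the Y-linked covariate -0.0074 (Dusp4).

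Leaving out 1 array at a time gave these ranges. In Tln1 vehicle against control, Dusp1 ran from -0.52 to 0.086, Dusp2 from -0.065 to 0.36, Dusp4 from 0.065 to 0.69, Dusp5 from 0.013 (without control 2) to 0.52 (without control 1), Dusp6 from -0.32 to 0.42, Spry1 from 0.19 (without Tln1 vehicle 3) to 0.49, Spred2 from 0.039 to 0.22, Spry4 from -0.25 to 0.56, Spred1 from -0.26 to 0.35, and the median of the 10 genes from 0.036 to 0.35. In Tln1 VPA against Tln1 vehicle, Dusp1 ran from -0.47 to 0.14, Dusp2 from -0.018 to 0.098, Dusp4 from -0.23 to 0.73, Spry1 from -0.046 to 0.23, Spry2 from -0.055 to 0.14, Spry4 from -0.015 to 0.34, Spred2 from -0.16 to 0.018, Dusp5 from 0.075 to 0.42, Spred1 from 0.020 to 0.27, and Dusp6 from 0.49 to 0.87. In Tln1 VPA against control, Dusp4 ran from 0.10 to 1.05, Dusp5 from 0.25 to 0.75, Dusp6 from 0.35 to 1.08, Spry1 from 0.29 to 0.55, Dusp2 from -0.030 to 0.40, Spry4 from -0.12 to 0.68, Spred1 from -0.12 to 0.49, Spred2 from -0.0098 to 0.12, and the median from 0.12 to 0.44, highest without control 1.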
